A study of Mus musculus with 9 samples.

Results

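The homeostatic microglia signature comprised 9 genes, P2ry12, P2ry13, Tmem119, Cx3cr1, Sall1, Gpr34, Siglech, Olfml3, and Fcrls, of 54119 genes with a transcript in the count table. The genes were chosen by name, and the counts of all Ensembl transcripts of each gene were summed. Of these, 7 were among the 16229 genes that passed the filter on low counts, whereas Tmem119 and Siglech did not pass it. The RNA came from primary microglia that were shaken off mixed glial cultures of whole E18 brains of C57BL/6J mice, so that none of the cells were taken directly from the brain. All cells, controls included, were transfected with a small interfering RNA (siRNA), which directs the breakdown of the mRNA with a matching sequence, by means of Lipofectamine RNAiMAX. The siRNA was a control sequence, one against Chd8, or one against Tsc2, with 3 libraries for each that carried the replicate numbers 1, 2, and 3, and the methods give a distinct brain for each biological replicate. The study's results text describes stimulation of all groups with lipopolysaccharide (LPS), a bacterial cell wall component, before RNA-seq, and its methods do not count RNA-seq among the experiments without LPS. The RNA-seq section of the methods and the sample descriptions name no LPS, and the text gives different durations for RNA-seq and for co-culture.

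Homeostatic microglia are the resting immune cells of the healthy brain. Their signature includes purinergic and chemokine receptors with which they sense their surroundings, the transcription factor Sall1, which maintains microglial identity, and several secreted or surface proteins. The signature depends on transforming growth factor-beta (TGF-beta) signaling, and it is known to fall when microglia are cultured or activated. Chd8 encodes a chromatin remodeler, and Tsc2 encodes a subunit of the complex that restrains mTOR complex 1.

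The labelled cell type and the knockdowns were examined first. All 12 general microglia and macrophage markers on the list used (such as C1qb, Fcer1g, and Csf1r) were detected, and their summed level was 4568 to 6239 CPM, a count relative to the total of its library after scaling with edgeR's TMM factors. Libraries held 16913005 to 33213477 counts, so that 3 counts, the floor for detection, were 0.0903 to 0.177 CPM, and these floors cover counting error only. Chd8 was at 118, 97.5, and 93.6 CPM in control libraries 1 to 3 and at 86.8, 44.6, and 38.2 CPM in the Chd8 siRNA libraries, so that it was lower within each replicate number by a log2 ratio of -0.44, -1.12, and -1.28. Tsc2 was at 40.8, 39.9, and 38.9 CPM in the control libraries and at 24.6, 30.6, and 36.4 CPM in the Tsc2 siRNA libraries, with log2 ratios of -0.72, -0.38, and -0.09. Thus each targeted gene was lower in its own knockdown without overlap of the groups, and the size of the reduction differed between replicate numbers. By edgeR's quasi-likelihood test neither was called without a replicate block, and with it Chd8 was called (log2 fold change -0.93, SE 0.143, adjusted p = 0.00781) and Tsc2 was not (-0.39, SE 0.124, adjusted p = 0.219).

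To examine how strongly the cultures expressed the signature, the genes were compared per transcript length, as counts divided by annotated length and scaled to the same total in each library. Fcrls, an Fc receptor-like scavenger receptor of microglia, stood far above the others at 55.5 ± 14.2 (SD, n = 9 libraries). Sall1 followed at 2.68 ± 1.18, Olfml3 at 1.70 ± 0.314, and Cx3cr1 at 1.30 ± 0.243. Fcrls alone held 81.9% to 92.4% of the summed length-scaled level of the 9 genes.

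Below these, the length-scaled level was 0.578 ± 0.337 for Gpr34, 0.413 ± 0.158 for P2ry12, and 0.369 ± 0.123 for P2ry13 (SD, n = 9 libraries). Tmem119 and Siglech were lowest at 0.0493 ± 0.088 and 0.0478 ± 0.0449, and Tmem119 exceeded Siglech in 3 of 9 libraries, with its highest level of 0.270 in Chd8 siRNA library 3. In this order, only Fcrls and Sall1 had ranges that did not overlap, and every later neighbour overlapped the next. Thus the levels were uneven across the signature, and the widely used markers Tmem119 and Siglech were below the filter on low counts.

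**Figure D1:**
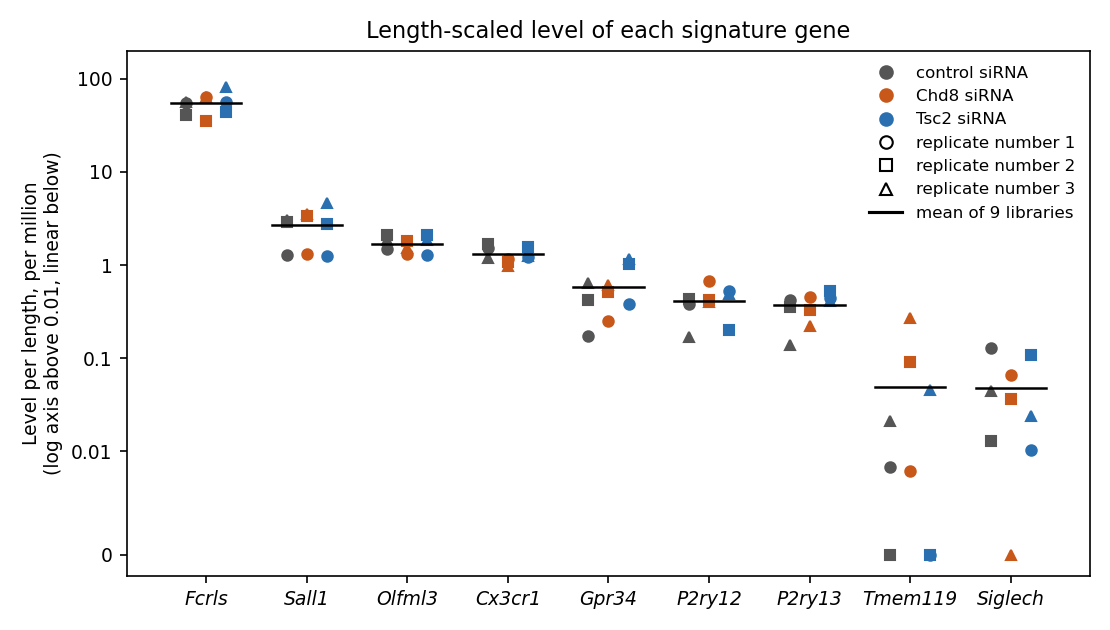
Length-scaled level of the 9 signature genes in each library (counts per annotated transcript length, scaled to the same total; logarithmic axis above 0.01 and linear below), with colors for the siRNA, symbols for the replicate number, and a line at the mean of 9 libraries. Fcrls lies above every other gene in all 9 libraries, and Tmem119 and Siglech reach 0 in some libraries.

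To examine whether the knockdowns changed the signature, each siRNA group was compared with control siRNA and with the other knockdown. None of the 7 tested genes was called in any comparison by the quasi-likelihood test of edgeR (FDR of 0.05, at least 1.5-fold), and the background was the same, with 0.0% of the 16229 genes called in each of the 3 comparisons. At an unadjusted p under 0.05, the test gave 622 genes for Chd8 siRNA against control siRNA, 420 for Tsc2 siRNA against control siRNA, and 503 for Tsc2 siRNA against Chd8 siRNA, with 0 of the 7 tested signature genes in each. DESeq2 called 9, 5, and 5 genes in these comparisons and limma-voom 0, with no signature gene among them. The log2 fold changes of the 7 genes had a median of 0.14 in Chd8 siRNA-treated microglia, where the median of all genes was -0.0179, and of 0.15 in Tsc2 siRNA-treated microglia, where it was -0.0183. Between the knockdowns, the median was 0.13 for the signature and -0.00468 for all genes. The 12 general microglia and macrophage markers had medians of 0.20 with Chd8 siRNA and 0.22 with Tsc2 siRNA, and the 7 tested astrocyte markers had medians of -0.34 and -0.63, so that positive medians against control siRNA were found outside the signature as well. Between the knockdowns, these markers had medians of 0.00908 and -0.18, and the 22 tested genes of a wider homeostatic list one of 0.00659. The part of cell composition in these medians was not tested. In each comparison, 5 of the 7 genes had a positive and 2 a negative fold change. The control libraries are shared by the first and second comparison.

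Because libraries with the same replicate number deviated together, the same test was run with the replicate number as a block. It called 0.53% of all genes for Chd8 siRNA against control siRNA (86 genes), 0.388% for Tsc2 siRNA against control siRNA (63 genes), and 0.222% for Tsc2 siRNA against Chd8 siRNA (36 genes). None of the 7 signature genes was among them. At an unadjusted p under 0.05, the blocked fit gave 2091, 1737, and 1746 of the 16229 genes, and 1, 1, and 0 of the 7 signature genes. For all 9 genes, the CPM values of the groups overlapped in every comparison. Of all genes tested, 9.07%, 8.13%, and 8.41% had groups that did not overlap, so that 0 of the 7 tested signature genes was close to the background. With 3 libraries against 3, a two-sided exact permutation test cannot go below p = 0.1, and no signature gene went below p = 0.2 in it.

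**Figure D2:**
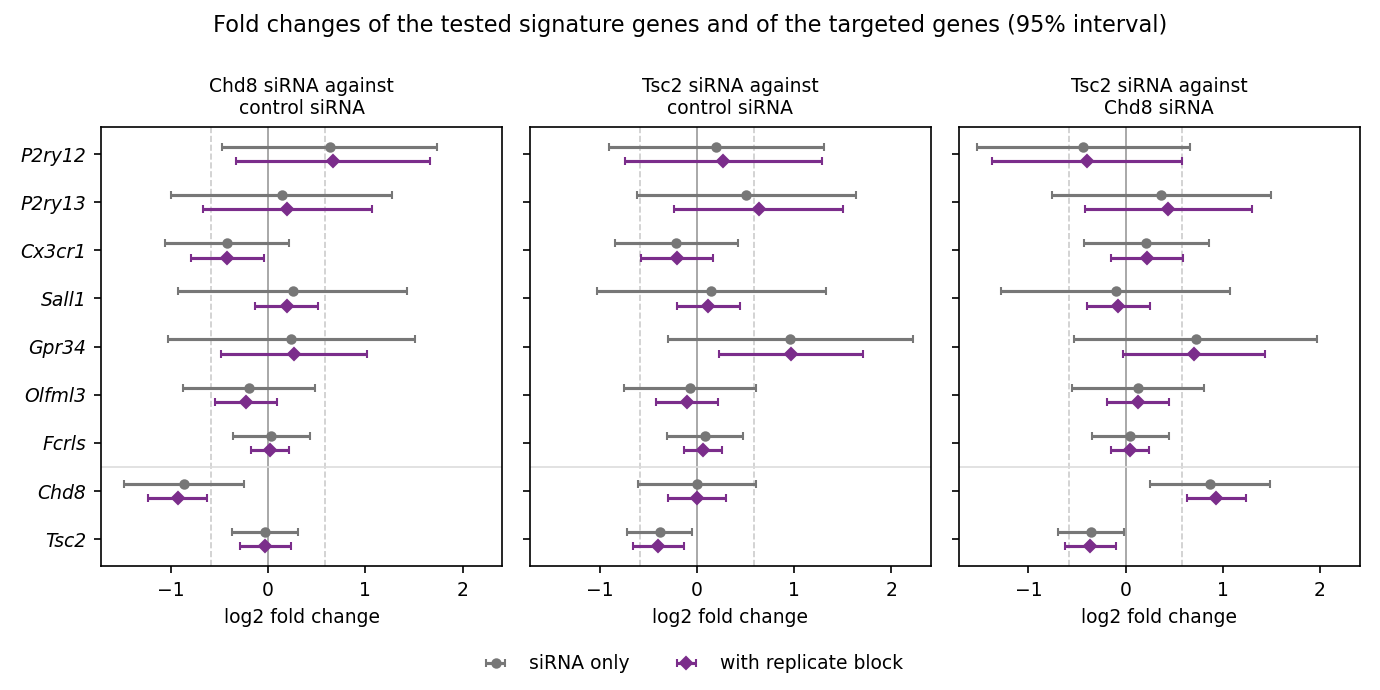
Log2 fold changes of the 7 tested signature genes and of the targeted genes Chd8 and Tsc2 in the 3 comparisons, with 95% intervals from edgeR's quasi-likelihood fit of 9 libraries, without (grey circles) and with (purple diamonds) the replicate block; dashed lines mark a fold change of 1.5. Only Cx3cr1 under Chd8 siRNA and Gpr34 under Tsc2 siRNA have blocked intervals that leave out 0 among the signature genes, and neither was called after adjustment.

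The purinergic receptors had low counts. P2ry12, the ADP receptor that directs microglial processes toward injury, lies on the minus strand of chromosome 3 at chr3:59216272-59262871 (GRCm38), inside Med12l, a gene on the opposite strand with which it shares exonic sequence. It was at 1.66, 2.09, and 0.687 CPM in control libraries 1 to 3, at 2.78, 2.36, and 1.73 CPM in the Chd8 siRNA libraries, and at 2.26, 0.953, and 1.84 CPM in the Tsc2 siRNA libraries. The lowest values were control library 3 and Tsc2 siRNA library 2, and the groups overlapped. The log2 fold change was 0.64 (SE 0.495, 95% interval -0.47 to 1.74) with Chd8 siRNA and 0.20 (-0.91 to 1.31) with Tsc2 siRNA. Rounded counts were only 16 to 83 per library. Without a stated strand setting, reads of P2ry12 and Med12l may not have been told apart.

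P2ry13, a related ADP receptor, is the downstream neighbour of P2ry12 on the same strand (chr3:59207892-59210882), also inside Med12l. Its values were 2.11, 2.03, and 0.644 CPM in the control libraries, 2.14, 2.10, and 1.03 CPM in the Chd8 siRNA libraries, and 2.18, 2.86, and 1.79 CPM in the Tsc2 siRNA libraries. Library 3 was the lowest of each group. The log2 fold change was 0.14 (SE 0.508) with Chd8 siRNA and 0.51 (SE 0.506, 95% interval -0.62 to 1.64) with Tsc2 siRNA. Rounded counts were 15 to 64 per library.

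The promoter windows of these neighbouring receptors are shown beside that of Sall1, which had no match to the motifs searched. Each is the 250 bases before the RefSeq transcription start (GRCm38.p6, minus strand), P2ry12 at chr3:59262986-59263235, P2ry13 at chr3:59210883-59211132, and Sall1 at chr8:89044163-89044412. Sall1 had 3 RefSeq windows, and only the one furthest upstream was searched for matches and is shown. Capitals mark matches to AGGAAG, the core recognized by the myeloid factor PU.1, in either orientation.
P2ry12: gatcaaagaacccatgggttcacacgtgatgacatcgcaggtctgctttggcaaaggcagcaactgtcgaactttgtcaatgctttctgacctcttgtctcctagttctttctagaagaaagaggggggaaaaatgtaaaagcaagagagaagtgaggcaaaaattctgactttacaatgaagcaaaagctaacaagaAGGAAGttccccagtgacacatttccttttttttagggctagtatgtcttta
P2ry13: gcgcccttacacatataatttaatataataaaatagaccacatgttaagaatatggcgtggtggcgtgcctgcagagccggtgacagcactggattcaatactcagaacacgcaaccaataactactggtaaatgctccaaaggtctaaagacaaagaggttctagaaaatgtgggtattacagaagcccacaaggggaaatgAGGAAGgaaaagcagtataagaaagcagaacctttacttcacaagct
Sall1: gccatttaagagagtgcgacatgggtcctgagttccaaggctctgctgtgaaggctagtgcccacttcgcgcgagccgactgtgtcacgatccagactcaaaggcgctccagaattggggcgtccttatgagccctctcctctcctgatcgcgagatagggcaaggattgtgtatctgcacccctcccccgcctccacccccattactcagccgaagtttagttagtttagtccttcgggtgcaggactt
P2ry12 and P2ry13 each held 1 match on the gene's own strand, starting 52 and 47 bases before the start site, and their GC content was 41.6% in both, against 56.4% in Sall1. RefSeq windows were matched for 7 of the 9 genes, and Tmem119 and Gpr34 had none. Annotated exons of the gene itself covered all 250 bases of the Cx3cr1 window, 136 of the Fcrls window, and 6 of the Siglech window. Of these 7, P2ry12, P2ry13, and Olfml3 held 1 AGGAAG match each and Fcrls 4, and 29.5% of all 32817 promoter windows of this length held at least 1. TGANTCA (AP-1) was found in 0 of the 7 and in 6.75% of all windows, and CAGACA (a SMAD box) in Siglech and Fcrls and in 17.1% of all windows. A match of this kind describes the letters of the window and does not show binding.

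Gpr34, a lysophosphatidylserine receptor, had the largest fold change among the 7 tested genes. It lies at chrX:13632089-13640858 on the plus strand, within the span of Cask. It was at 0.716, 1.97, and 2.23 CPM in the control libraries, 0.971, 2.68, and 2.18 CPM in the Chd8 siRNA libraries, and 1.54, 4.16, and 3.83 CPM in the Tsc2 siRNA libraries. The Tsc2 siRNA library exceeded the control library of the same replicate number in 3 of 3 numbers, by log2 ratios of 0.74, 0.92, and 0.67, although the groups overlapped because library 1 was the lowest of each group. The log2 fold change with Tsc2 siRNA was 0.96 (SE 0.565, 95% interval -0.30 to 2.22) without the block and 0.97 (SE 0.346, 0.23 to 1.71) with it, where edgeR's unadjusted p was 0.0135 and the adjusted p was 0.297. With Chd8 siRNA it was 0.24 (SE 0.568). Gpr34 therefore did not pass the test in either fit, and the interval without the block spans no change and a rise of more than 1.5-fold alike.

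Cx3cr1, the receptor of the neuronal chemokine fractalkine (Cx3cl1), lies on the minus strand at chr9:119901616-120069879, a span that holds or overlaps 9 other annotated genes. It was at 10.7, 13.4, and 7.68 CPM in the control libraries, 7.20, 10.3, and 6.25 CPM in the Chd8 siRNA libraries, and 8.11, 11.7, and 7.64 CPM in the Tsc2 siRNA libraries. The Chd8 siRNA library was below the control library in 3 of 3 numbers, by log2 ratios of -0.54, -0.37, and -0.28. The log2 fold change with Chd8 siRNA was -0.42 (SE 0.287, 95% interval -1.06 to 0.22), and with the block -0.42 (SE 0.176, -0.80 to -0.05), with an unadjusted p of 0.0301 and an adjusted p of 0.314 by edgeR's quasi-likelihood test. With Tsc2 siRNA it was -0.21 (SE 0.285), again with lower values in 3 of 3 numbers, the smallest log2 ratio being -0.01.

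Among the 7 tested genes, 3 moved the same way within all 3 replicate numbers in each comparison. For Chd8 siRNA against control siRNA these were P2ry12 and P2ry13, which were higher, and Cx3cr1, which was lower. For Tsc2 siRNA against control siRNA they were P2ry13 and Gpr34, which were higher, and Cx3cr1, which was lower, and for Tsc2 siRNA against Chd8 siRNA all 3 (P2ry13, Cx3cr1, and Gpr34) were higher. Over all genes tested, 36.0%, 31.9%, and 32.2% moved the same way within all 3 numbers in these comparisons, so that 3 of 7 was close to the background.

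Sall1, the zinc finger transcription factor, lies at chr8:89027235-89044162 on the minus strand, has 1 annotated transcript, and overlaps no other gene. It was at 13.3, 34.0, and 29.6 CPM in the control libraries, 12.7, 44.8, and 34.3 CPM in the Chd8 siRNA libraries, and 12.9, 30.6, and 41.7 CPM in the Tsc2 siRNA libraries. The libraries numbered 1 lay between 12.7 and 13.3 CPM and the other 6 at 29.6 CPM or more, whatever the siRNA. The log2 fold changes were 0.25 (SE 0.528) with Chd8 siRNA and 0.15 (SE 0.528) with Tsc2 siRNA, and the block narrowed the 95% intervals to -0.13 to 0.51 and -0.21 to 0.44. A change of 1.5-fold in Sall1 lay outside both blocked intervals. Without the block, the intervals were -0.92 to 1.43 with Chd8 siRNA and -1.03 to 1.33 with Tsc2 siRNA, and both included such a change.

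Olfml3, a secreted olfactomedin-like protein, lies at chr3:103722222-103738001 on the minus strand. It was at 14.1, 21.2, and 18.1 CPM in the control libraries, 11.7, 21.7, and 13.2 CPM in the Chd8 siRNA libraries, and 11.2, 22.2, and 17.5 CPM in the Tsc2 siRNA libraries. Library 2 was the highest and library 1 the lowest of each group. The log2 fold changes were -0.20 (SE 0.305) with Chd8 siRNA and -0.07 (SE 0.304) with Tsc2 siRNA, with blocked intervals of -0.55 to 0.09 and -0.42 to 0.22.

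Fcrls, the most abundant gene of the signature, lies at chr3:87250758-87263738 on the minus strand and had 2206 to 7499 counts per library, the most of the 9 genes. It was at 181, 158, and 172 CPM in the control libraries, 191, 141, and 191 CPM in the Chd8 siRNA libraries, and 178, 144, and 220 CPM in the Tsc2 siRNA libraries. Library 2 was the lowest of each group. The log2 fold changes were 0.03 (SE 0.176, 95% interval -0.36 to 0.43) with Chd8 siRNA and 0.08 (SE 0.176, -0.31 to 0.48) with Tsc2 siRNA, so that a 1.5-fold change in either direction lay outside both intervals.

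Tmem119, a transmembrane protein that marks microglia of the adult brain (chr5:113793729-113800516, minus strand), was detected in few libraries. Its rounded counts were 1, 0, and 2 in the control libraries, 1, 8, and 27 after Chd8 siRNA, and 0, 0, and 6 after Tsc2 siRNA. Chd8 siRNA libraries 2 and 3 (0.51 and 1.11 CPM) exceeded all other libraries, while Chd8 siRNA library 1 (0.0335 CPM) lay within the control range. The exact permutation test gave p = 0.3 for Chd8 siRNA against control siRNA (two-sided, 3 libraries against 3). With no filter on low counts, edgeR's unadjusted p was 0.0428 and its adjusted p 0.942, and no fold change is given because the control libraries were at or under the floor of 3 counts.

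Siglech, a sialic acid-binding lectin (chr7:55768178-55778925, plus strand), had 14, 1, and 4 counts in the control libraries, 6, 3, and 0 after Chd8 siRNA, and 1, 8, and 3 after Tsc2 siRNA. The groups overlapped, and its differences were not detectable at this depth.

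**Figure D3:**
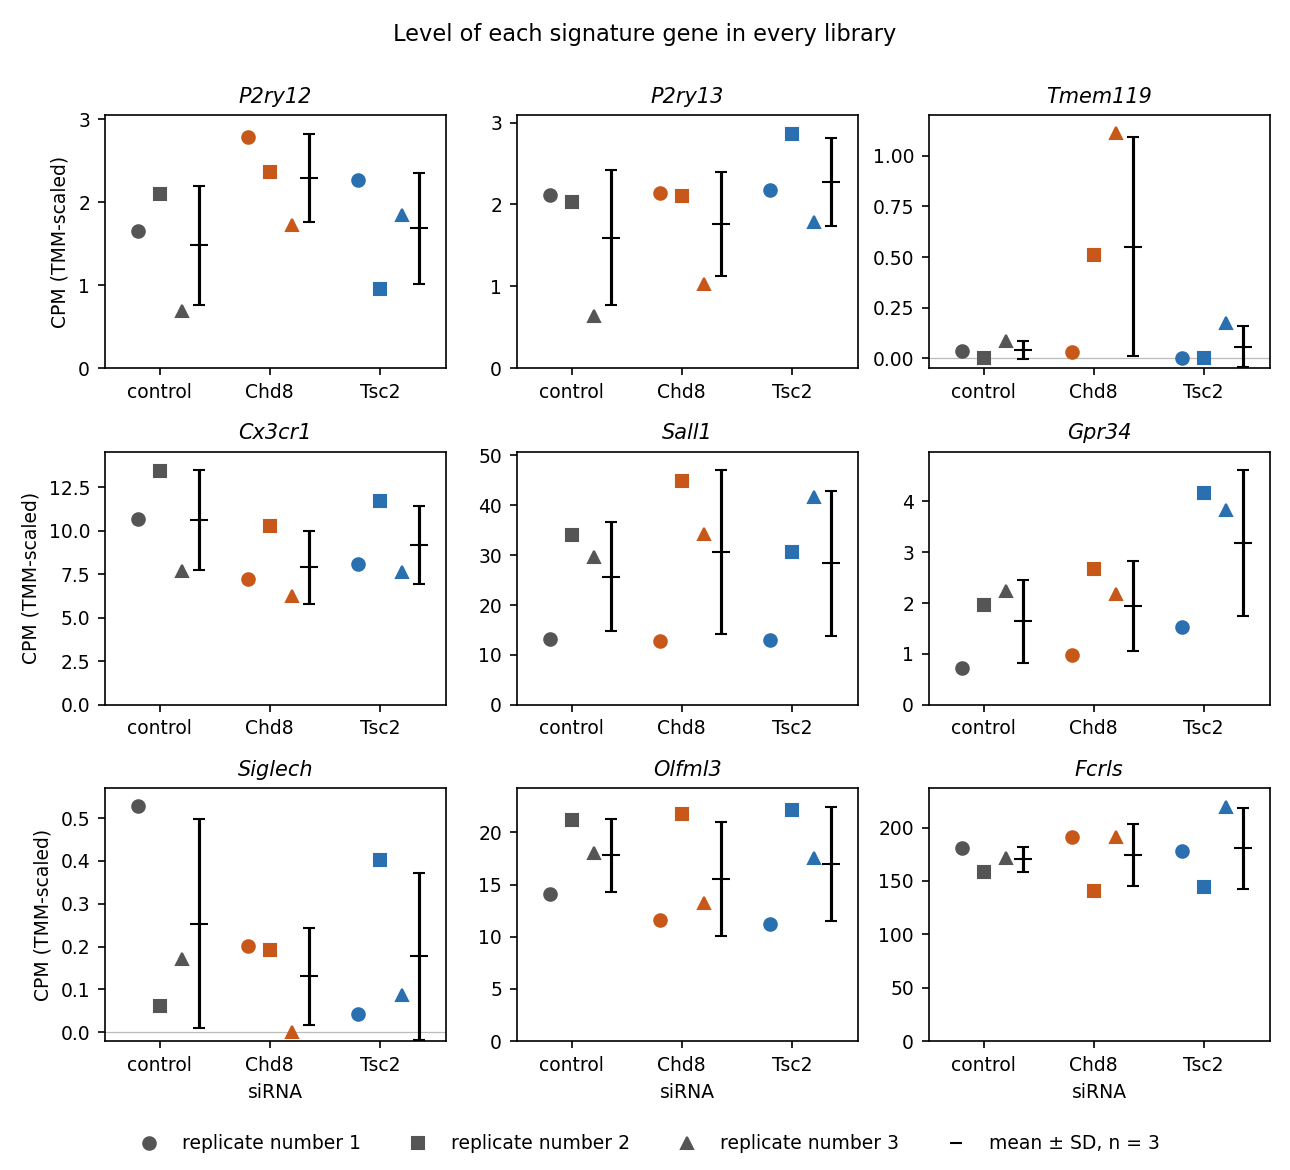
CPM (TMM-scaled) of each signature gene in every library, by siRNA group, with symbols for the replicate number and mean ± SD (n = 3) in black; each panel has its own linear axis. All groups overlap in every panel, and the libraries numbered 1 are the lowest of their group for Sall1, Gpr34, and Olfml3.

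To compare the spread between replicate numbers with that between siRNAs, both were placed in one edgeR fit. Replicate number was called at an FDR of 0.05 for 5 of the 7 tested genes, namely Sall1 (adjusted p = 5.82e-06), Olfml3 (0.00249), Fcrls (0.0108), Gpr34 (0.0114), and Cx3cr1 (0.018), against 25.1% of all genes tested (4077 genes). P2ry13 (0.130) and P2ry12 (0.561) were not called. On the log2 scale, replicate number held 93.6% of the variance of Sall1, 84.3% of Olfml3, 75.4% of Fcrls, 72.3% of Cx3cr1, 69.5% of Gpr34, 67.0% of P2ry13, and 25.5% of P2ry12. The median was 72.3% over the 7 genes and 42.0% over all genes tested, whereas the siRNA held a median of 19.6% and 18.1%. With 3 levels over 9 libraries, each factor holds part of the variance even without an effect, so that these shares are no test.

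The genes did not follow the replicate number in a common direction. Sall1 had a mean of 12.95 ± 0.294 CPM in libraries numbered 1, 36.5 ± 7.41 CPM in those numbered 2, and 35.2 ± 6.07 CPM in those numbered 3 (SD, n = 3 each), and its highest and lowest number differed by 2.82-fold. Gpr34 had means of 1.07, 2.94, and 2.75 CPM (2.73-fold between the highest and lowest) and Olfml3 of 12.3, 21.7, and 16.3 CPM (1.76-fold). By contrast, Cx3cr1 was highest in number 2 and lowest in number 3, with means of 8.66, 11.8, and 7.19 CPM. Fcrls was lowest in number 2 in all 3 groups, with means of 183, 148, and 194 CPM (1.32-fold).

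Several of these calls rested on single libraries. Without control siRNA library 2, control siRNA library 3, Chd8 siRNA library 2, or Tsc2 siRNA library 2, the adjusted p of Cx3cr1 was 0.0744, 0.0673, 0.077, and 0.0779. Fcrls lost its call without Chd8 siRNA library 2 (0.101) or Tsc2 siRNA library 2 (0.123), and Gpr34 without control siRNA library 1 (0.0621) or Tsc2 siRNA library 1 (0.0523). Sall1 and Olfml3 kept theirs in all 9 fits that left out 1 library. When the 3 libraries numbered 1 were left out together, the adjusted p was 0.909 for Sall1, 0.932 for Gpr34, and 0.108 for Olfml3, whereas Cx3cr1 (0.0297) and Fcrls (0.0144) remained below 0.05.

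**Figure D4:**
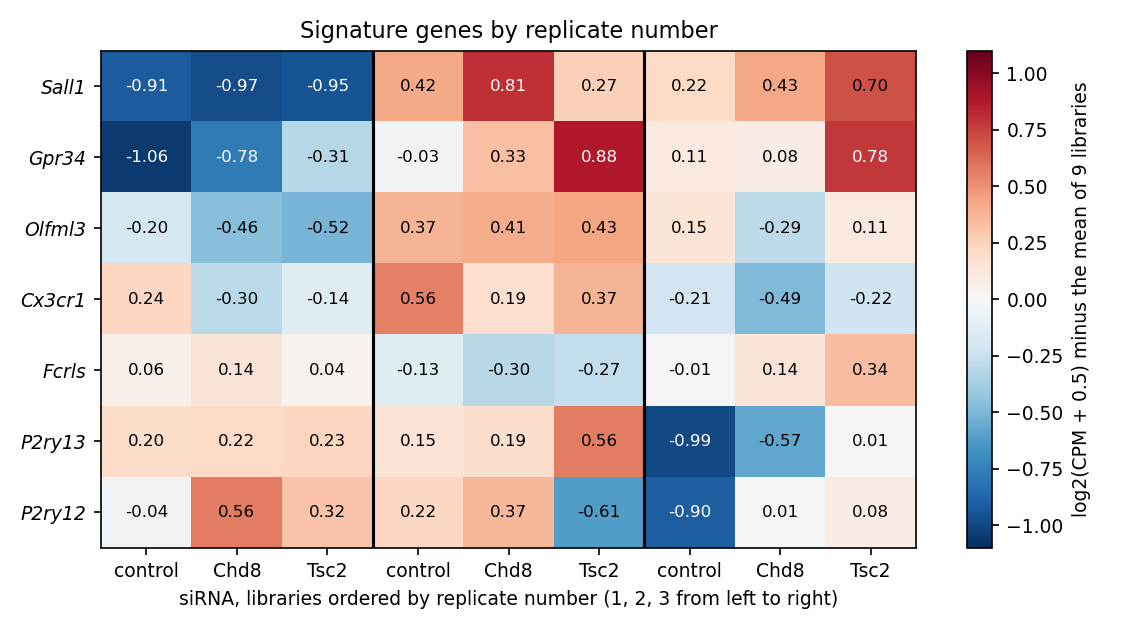
Centred level, log2(CPM + 0.5) minus the mean of 9 libraries, of the 7 tested signature genes (rows) in each library, ordered by replicate number and labelled by siRNA (columns). Sall1 is at -0.91 to -0.97 in the 3 libraries numbered 1 and above 0 in the other 6, while Fcrls is below 0 in the 3 libraries numbered 2.

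Markers of other brain cells also differed between replicate numbers, in different directions. The summed level of 8 astrocyte markers was 12 to 14.6 CPM in libraries numbered 1, 24.4 to 27.4 CPM in those numbered 2, and 47.1 to 106 CPM in those numbered 3. Aqp4, the astrocyte water channel, was at 0 in all 3 libraries numbered 1 and at a mean of 6.35 and 24.1 CPM in numbers 2 and 3. The sum of 9 markers of the oligodendrocyte lineage was 27.1 to 29.4, 27.0 to 31.2, and 13.6 to 20.98 CPM in numbers 1, 2, and 3. That of 6 neuron markers was 2.91 to 4.56, 4.26 to 6.44, and 5.83 to 19.2 CPM. For 7 markers of vessel cells and fibroblasts it was 51.8 to 60.6, 66.8 to 78.4, and 68.0 to 110 CPM. Of 8 markers of border-associated macrophages and monocytes, whose sum overlapped between the numbers (405 to 550 CPM over all libraries), Ms4a7 and Mrc1 were the highest and Lyve1 was at 0 in all 9 libraries. In the siRNA comparisons, 1 of these markers was called, with the block, the fibroblast collagen Col1a1, which fell by 1.31 on the log2 scale with Chd8 siRNA (SE 0.251, adjusted p = 0.0216), from 2.56, 12.8, and 44.0 CPM to 1.98, 4.46, and 13.2 CPM. Of all genes tested, 0.53% were called for Chd8 siRNA against control siRNA in the blocked fit. With Tsc2 siRNA, Ms4a7 (log2 fold change 0.43, adjusted p = 0.016) and the general marker Aif1 (0.53, adjusted p = 0.0444) passed the FDR in the blocked fit but not the fold threshold. Their part in the levels of the signature genes was not tested, and in bulk RNA fewer cells of a type and less RNA per cell cannot be told apart.

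Of 26 further genes known from homeostatic microglia, 22 were tested. Without the block, 0 were called by edgeR, and 1, 2, and 0 had an unadjusted p under 0.05 in the 3 comparisons, where 622, 420, and 503 of all 16229 genes did. With the block, Entpd1 was called for Chd8 siRNA (0.53% of all genes were) and Sparc for Tsc2 siRNA (0.388%). Entpd1 (CD39), an enzyme that degrades extracellular ATP, was at 8.63, 13.7, and 4.03 CPM in the control libraries and at 14.6, 21.05, and 12.2 CPM in the Chd8 siRNA libraries. The groups overlapped. It rose with a blocked log2 fold change of 0.94 (SE 0.211, adjusted p = 0.0493), and with Tsc2 siRNA the value was 0.98 (SE 0.211, adjusted p = 0.0516). Sparc, a matricellular protein also made by astrocytes and vessel cells, fell by 0.70 on the log2 scale with Tsc2 siRNA in the blocked fit (SE 0.14, adjusted p = 0.0343), from 3.24, 29.6, and 93.8 CPM in the control libraries to 2.73, 19.6, and 46.1 CPM. Kctd12 had an adjusted p of 0.0329 with Chd8 siRNA in the blocked fit and a log2 fold change of 0.55, which was under the fold threshold. In the same edgeR fit, Kctd12 was at 0.52 with Tsc2 siRNA (adjusted p = 0.0534). Vsir (0.59, adjusted p = 0.0869), Selplg (0.51, 0.133), and Slco2b1 (1.03, 0.241) were higher and Csf1r lower (-0.16, 0.411) with Tsc2 siRNA, without a call. With Chd8 siRNA, Serpine2 was lower (-0.49, adjusted p = 0.094) and Bin1 higher (0.38, 0.166), also without a call. The genes with the highest CPM, Kctd12 and Csf1r, the receptor of microglial growth factors, were at a mean of 480 and 499 CPM in the control libraries. The medians of the blocked log2 fold changes were 0.06 with Chd8 siRNA and 0.07 with Tsc2 siRNA. Replicate number was called for 14 of the 22 genes, against 25.1% of all genes, with the lowest adjusted p for Sparc (1.68e-10) and Serpine2 (1.12e-05).

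Genes of the TGF-beta pathway, on which the signature depends in vivo, did not pass the test in any siRNA comparison. This held for 13 of 13 ligands, receptors, activators, and SMAD genes with and without the block. Without it, 0 had an unadjusted p under 0.05 by edgeR, where 622, 420, and 503 of all 16229 genes did. With the block, the median log2 fold changes were -0.10 with Chd8 siRNA and 0.03 with Tsc2 siRNA. Single genes lay farther from 0 in that fit, such as Tgfb2 with Tsc2 siRNA (-1.42, SE 0.465, adjusted p = 0.248 by edgeR). With Chd8 siRNA, Tgfbr1 was at -0.35 (SE 0.159), Ski at -0.26 (SE 0.123), Tgfb1 at -0.19 (SE 0.0881), and Itgav at 0.15 (SE 0.0674). Replicate number was called for 10 of the 13, against 25.1% of all genes. Itgav, an integrin subunit that activates latent TGF-beta, had means of 280, 650, and 606 CPM in numbers 1, 2, and 3 (adjusted p = 1.15e-08), and Skil, a negative regulator of SMAD signaling, had 186, 290, and 287 CPM (adjusted p = 2.65e-05). Of the 10 genes, 6 were lowest in number 1 (Itgav, Skil, Itgb8, Smad3, Smad7, and Tgfb2). By contrast, Tgfb1 (means of 295, 219, and 226 CPM), Tgfbr2, and Smad4 were highest in number 1, and Nrros was lowest in number 3, so that the pathway did not follow the replicate number in a common direction.

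The partner list held Cx3cl1, the adaptors Tyrobp and Hcst, and, outside the signature, the growth factor receptor Csf1r with its ligands Csf1 and Il34. Of these, 5 of 6 were tested, and Il34 did not pass the filter. Cx3cl1, the ligand of Cx3cr1, was at 18.0, 53.0, and 64.2 CPM in the control libraries, 17.2, 53.4, and 59.2 CPM in the Chd8 siRNA libraries, and 20.1, 104, and 108 CPM in the Tsc2 siRNA libraries. In the blocked fit it rose with Tsc2 siRNA against control siRNA (log2 fold change 0.65, SE 0.134, adjusted p = 0.0387) and against Chd8 siRNA (0.71, SE 0.134, adjusted p = 0.0325), whereas it was not called without the block. Library 1 was the lowest of each group, and the groups overlapped. Tyrobp, the adaptor through which Siglech signals, and Csf1r had the highest CPM of this list, at control means of 135 and 499 CPM, and neither was called. Replicate number was called for 4 of the 5, against 25.1% of all genes, with the lowest adjusted p for Csf1 (8.00e-09) and Cx3cl1 (1.14e-07).

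Activation genes were examined beside the signature, and all 12 on the list were tested. Apoe, a lipid carrier, and Tnf, an inflammatory cytokine, had the highest CPM, and their length-scaled levels averaged 6577 and 1837 over the 9 libraries, against 55.5 for Fcrls. With the block, 2 were called, both lower in Tsc2 siRNA-treated microglia, where 0.388% of all genes were called. Spp1 (osteopontin) went from 4419, 1690, and 2532 CPM in the control libraries to 3004, 873, and 1470 CPM (log2 fold change -0.76, SE 0.0887, adjusted p = 0.00156), and Nos2 (inducible nitric oxide synthase) from 796, 837, and 1024 CPM to 673, 460, and 426 CPM (-0.77, SE 0.143, adjusted p = 0.0202). No gene of the list was called without the block or with Chd8 siRNA, and the median blocked log2 fold change was 0.01 with Chd8 siRNA and -0.02 with Tsc2 siRNA. Replicate number was called for 9 of the 12, against 25.1% of all genes, and Tnf had means of 1626, 5481, and 10348 CPM in numbers 1, 2, and 3.

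To find genes with a similar course, the mean centred log2 profile of the 7 tested signature genes over the 9 libraries was compared with that of every tested gene. Among the 5 genes with the smallest root mean square differences were Eya3 (0.0659), Relb (0.0669), Ppp2r5a (0.0848), and Lcp1 (0.0945), as log2 values. Relb, for example, was at 65.8, 83.5, and 60.5 CPM in the control libraries and at 66.6, 88.8, and 86.0 CPM in the Tsc2 siRNA libraries. The signature genes themselves lay farther from their own mean profile, from 0.223 for Olfml3 and 0.290 for Cx3cr1 to 0.535 for Sall1. The 5 genes were chosen for their small difference, so that they are no standard for the signature genes.

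Finally, the transcripts behind each gene were examined, because the estimated counts were assigned to transcripts before they were summed. Sall1-201, P2ry13-201, and Tmem119-201 held all counts of their genes. Fcrls-201 held 79.2% to 86.2% of the Fcrls counts in every library, and the shorter Fcrls-202 held the rest. For the other genes, the assignment changed between libraries. Gpr34-201 and Gpr34-202, which are 2088 and 1898 bases long, each ranged from 0% to 100% of the gene's counts, and 4 transcripts of P2ry12 each were at 0 in at least 3 libraries. Cx3cr1-201 held 38.6% to 100% of the counts. Olfml3-202, a retained-intron transcript, held 29.0% of all Olfml3 counts and 0% to 56.1% within a library, and with protein-coding transcripts alone the replicate number was no longer called for Olfml3 (adjusted p = 0.0834). For P2ry12 and Gpr34, only 16 to 131 counts per library stood behind these shares.

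**Figure D5:**
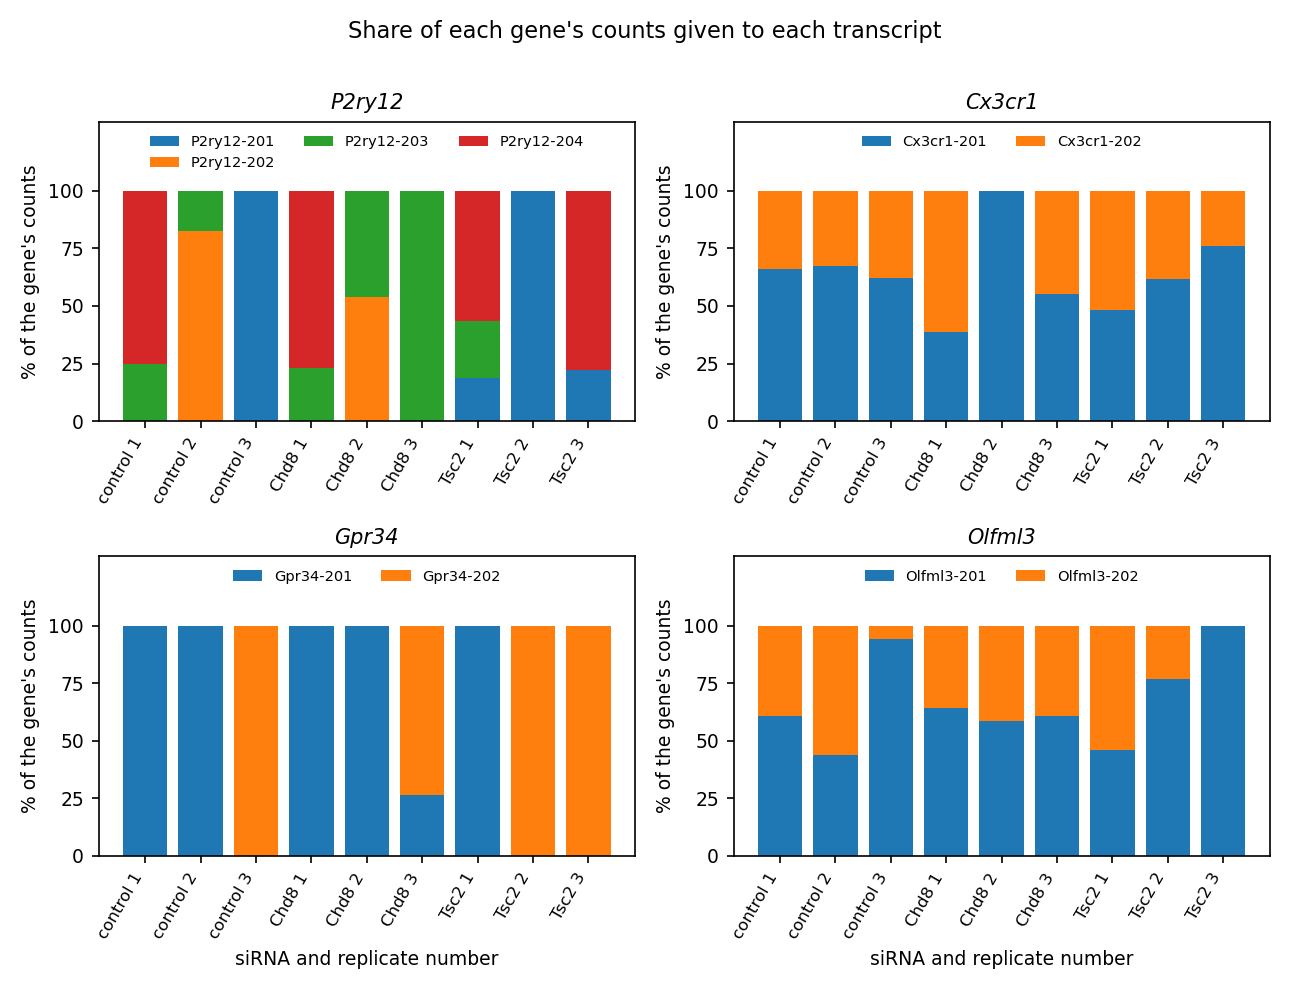
Share of the summed estimated counts given to each annotated transcript of P2ry12, Cx3cr1, Gpr34, and Olfml3 in the 9 libraries (percent of the gene's counts; libraries named by siRNA and replicate number). Control siRNA library 3 has all P2ry12 counts in P2ry12-201 and all Gpr34 counts in Gpr34-202, unlike control siRNA libraries 1 and 2.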

How the data were processed

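RNA-seq of 9 libraries of primary mouse microglia was used, 3 each with control, Chd8, or Tsc2 siRNA, grouped by the sample titles. The authors quantified reads with Salmon 0.14.1 on mm10 and deposited estimated counts per transcript, not normalized; the annotation release and strand setting are not given in the sources used here. For the libraries, the paper gives an Illumina kit for total RNA and the labels a stranded SMARTer kit.

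Counts were rounded and summed to genes with GENCODE M21 (139852 of 140948 transcripts matched; the others held 0.27% of counts). Libraries had 16913005 to 33213477 counts. Tests used edgeR 4.0.16 (R 4.3.3) with filterByExpr, TMM factors, and the quasi-likelihood test in one fit of 9 libraries, Benjamini-Hochberg adjusted over 16229 genes. Calls needed an FDR of 0.05 and, for siRNA, a fold change of 1.5. Replicate number was tested with an F test beside siRNA. Exact permutation tests used log2(CPM + 0.5). DESeq2 1.42.0, limma 3.58.1, RLE scaling, no count filter, single or protein-coding transcripts, and left-out libraries were alternatives. The code was tested on simulated data.

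Libraries with the same replicate number in the labels deviated together (r of 0.244 to 0.522 over 9 pairs, against -0.382 to 0.0366 for other pairs), so blocked values are given; no source says that one number marks one culture. The signature genes and lists were chosen with earlier results of these data known. Named are all 9 genes, Chd8, Tsc2, up to 5 called genes per list and comparison, or those with the lowest p, the 2 most abundant genes of a list, and the 5 genes closest to the mean profile, not all of which are reported here.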

Additional observations from a re-analysis of the deposited data

How the results depend on the processing

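No siRNA comparison gave a call for a signature gene under any alternative run, and the replicate block changed no signature gene's call. The number of genes called over the whole table did depend on the fit. For Chd8 siRNA against control siRNA, Tsc2 siRNA against control siRNA, and Tsc2 siRNA against Chd8 siRNA, it was 0 in the main test, 86, 63, and 36 with the replicate block, and 9, 5, and 5 with DESeq2's Wald test. Without a count filter it was 2 and 1 in the first and second. With each library left out in turn, the count was 0 in all fits without the block, and 20 to 107, 7 to 131, and 4 to 129 in the blocked fits.

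Some fold changes changed sign, in no case with a call, and the cause was not tested. Sall1 between the knockdowns became 0.028 with limma-voom. With the highest transcript only, the log2 fold change became -0.48 for Gpr34 and -0.020 for Fcrls with Chd8 siRNA, 0.18 for Olfml3 with Tsc2 siRNA, and 0.33 for P2ry12 between the knockdowns. Olfml3 with Tsc2 siRNA was 0.17 with protein-coding transcripts only and 0.016 without the 3 libraries numbered 1, an alternative chosen after seeing the data. With each library left out, with or without the block, the log2 fold change with Chd8 siRNA was -0.081 to 0.17 for Fcrls, -0.13 to 0.57 for Gpr34, -0.24 to 0.43 for P2ry13, and -0.12 to 0.63 for Sall1. With Tsc2 siRNA it was -0.078 to 0.23 for Fcrls, -0.30 to 0.16 for Olfml3, -0.14 to 0.76 for P2ry12, and -0.23 to 0.50 for Sall1. The other fold changes against control siRNA kept their direction but moved by over 1.5 times, with Chd8 siRNA P2ry12 (0.29 without control siRNA library 3 to 1.19 without control siRNA library 2), Cx3cr1 (-0.65 without Chd8 siRNA library 2 to -0.22 without control siRNA library 2), and Olfml3 (-0.52 to -0.028), and with Tsc2 siRNA Gpr34 (0.60 without control siRNA library 1 to 1.29 without Tsc2 siRNA library 1), P2ry13 (0.13 to 0.90), and Cx3cr1 (-0.42 to -0.0014). Between the knockdowns, the log2 fold change was -0.00074 to 0.44 for Cx3cr1, -0.11 to 0.19 for Fcrls, -0.10 to 0.45 for Olfml3, -0.85 to 0.037 for P2ry12, and -0.49 to 0.28 for Sall1.

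Replicate number was called for 4077 genes, for 3082 to 3933 with each library left out, and for 1376 without the 3 libraries numbered 1, which leaves 6 libraries. Without those 3, the adjusted p was 0.909 for Sall1, 0.932 for Gpr34, and 0.108 for Olfml3. Tmem119 and Siglech had at most 27 and 14 counts in a library.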
